A study of Rattus norvegicus with 3 samples.

Results

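The genes described here encode subunits of the mitochondrial respiratory chain and of ATP synthase, with a few proteins that carry the same family names. A probe set, the group of short oligonucleotides that reads 1 transcript on this type of array, was taken as a member when the platform annotation gave it exactly 1 gene symbol and that symbol began with Nduf, Sdh followed by a to d, Uqcr, Cox followed by 4 to 8, or Atp5, or was Cycs, Cyc1, COX1, COX2 or COX3. The rule used names and no measured value, and it found 59 genes of the 4736 on the array with a symbol of their own, read by 106 of 7006 probe sets. Of these genes 24 belonged to complex I, 1 to complex II, 4 to complex III, 15 to complex IV and 9 to ATP synthase (complex V), and the other 6 were associated factors, regulators or related sequences. The single-symbol probe sets held no cytochrome c gene (Cycs) and no mitochondrially encoded gene besides COX1, COX2 and COX3.

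Sprague Dawley rats were dosed for 20 days, and RNA of their thoracic aorta was read on oligonucleotide arrays. The control group received water at 1 ml/kg, and the others received allylamine, a small amine toxic to the heart and arteries, at 35 mg/kg (the low dose) or 70 mg/kg (the high dose). The comparison asks how the aorta responds to the amount given. Each group had 1 array, so no difference below has a replicate check, a test or a p-value, and both dose comparisons share the same control array. The sources used here do not give the number of animals behind an array or say whether RNA was pooled.

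Complexes I to IV sit in the inner mitochondrial membrane and pass electrons from NADH and succinate to oxygen, and complexes I, III and IV pump protons as they do so. ATP synthase lets the protons return through its membrane rotor and uses that flow to make ATP in its catalytic head. Most subunits are encoded in the nucleus, but the catalytic core of complex IV and parts of complexes I, III and V are encoded in mitochondrial DNA. The tissue's smooth muscle uses both glycolysis and oxidative phosphorylation, and striated muscle and brown fat are richer in respiratory chain subunits.

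An intensity below is the deposited value after each array was scaled to a common median, and differences are log2 of one array over another. Intensities at or under a floor of 188.3, the 40th percentile of all scaled values, were treated as not measured. A gene's difference is the median over its probe sets above the floor on both arrays, and it was counted as higher or lower at 2-fold, a log2 difference of 1. Where a gene passed the floor on 1 array only, a bound ("at least N-fold") is given against the floor. Where 3 intensities follow one another they are in the order control, low dose and high dose. Of the 106 member probe sets, 49 lay above the floor on all arrays, 38 on 1 or 2 of them and 19 on none. The share above the floor was 63.2% for control, 62.3% for the low dose and 71.7% for the high dose. Of all 8740 probe sets other than array controls, whatever their annotation, 60.1%, 59.2% and 60.7% were above the floor. Ndufb1, Sdha, Uqcrc2, Atp5pb and Atp5pd were above it on no array.

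The arrays differed in technical measures and in marker levels. The 9 hybridisation control probe sets, which read spiked transcripts, had a median ratio of 3.81 (low dose) and 28.8 (high dose) to control. The 3' over 5' ratio of actin was 0.376 for control, 0.542 for the low dose and 1.42 for the high dose. Smooth muscle markers were present, with 7, 5 and 6 of 7 genes above the floor in the order control, 35 and 70 mg/kg, and summed intensities of 3274, 2634 and 4668. Of these sums Cnn1 alone made up 218.0, 633.3 and 1580. The measured smooth muscle genes had a median difference of -0.28 at the low dose and 0.22 at the high dose. At the high dose 3 of them lay above control and 3 below. Markers of striated and cardiac muscle were also present, with 14, 12 and 13 of 18 genes above the floor and sums of 13835, 10351 and 7210. Casq1 alone made up 6306, 1508 and 842.3 of these sums. The median difference of the measured genes on that list was 0.30 at the low dose and -0.22 at the high dose. White and brown adipocyte markers had 7, 9 and 9 of 12 genes above the floor and sums of 10068, 12105 and 5316, while blood cell markers had 1, 2 and 3 of 3 and sums of 555.1, 792.6 and 2126. None of the single marker genes was at 0. The part of these tissues, of the spiked controls and of the actin ratio in the differences below was not tested. In bulk RNA, fewer cells of a type and less RNA per cell cannot be told apart.

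At 70 mg/kg 27 of the 41 measured members lay above the control array and 14 below it, against 1177 and 1285 of all genes. The 5 measured ATP synthase genes had 0 calls above and 2 below. Both arrays measured 41 members, of which 12 were at least 2-fold higher (29.3%) and 5 at least 2-fold lower (12.2%), against 19.7% higher and 23.2% lower of the 2462 genes measured on these arrays. The median difference of the members was 0.25, against -0.06 over all genes measured. With a floor at the 5th percentile 57 members were measured, 22 higher and 10 lower, against 24.1% and 26.2% of all genes at that floor. With a floor at the 55th percentile 27 were measured, 9 higher and 1 lower, against 15.8% and 20.5%. Among the 18 members not measured on both arrays, 4 had a bound of at least 2-fold higher and 1 of at least 2-fold lower, against 18.0% and 18.1% of the 2274 such genes.

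At 35 mg/kg 26 of the measured members lay above the control array and 12 below it, against 1346 and 1260 of all genes. This is the same control array as before. Of 38 measured members 10 were higher (26.3%) and 4 lower (10.5%), against 16.8% and 16.3% of 2606 genes, and the median was 0.41 against 0.04. Under the 55th percentile floor 6 of 30 members were higher, against 14.4% of all genes, and without the probe sets marked as less specific 6 of 25 were higher, against 15.9%. Of 21 members not measured, 3 had a bound higher and 0 a bound lower, against 10.8% and 13.0% of 2130 genes. Between 70 and 35 mg/kg the 40 measured members had a median of 0.0043 against -0.06 for all genes, with 8 higher (20.0%) and 6 lower (15.0%), against 14.4% and 20.9% of 2459 genes. Among the 19 members not measured on both dose arrays, 4 had a bound higher and 2 a bound lower, against 16.8% and 15.5% of 2277 genes.

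**Figure D1:**
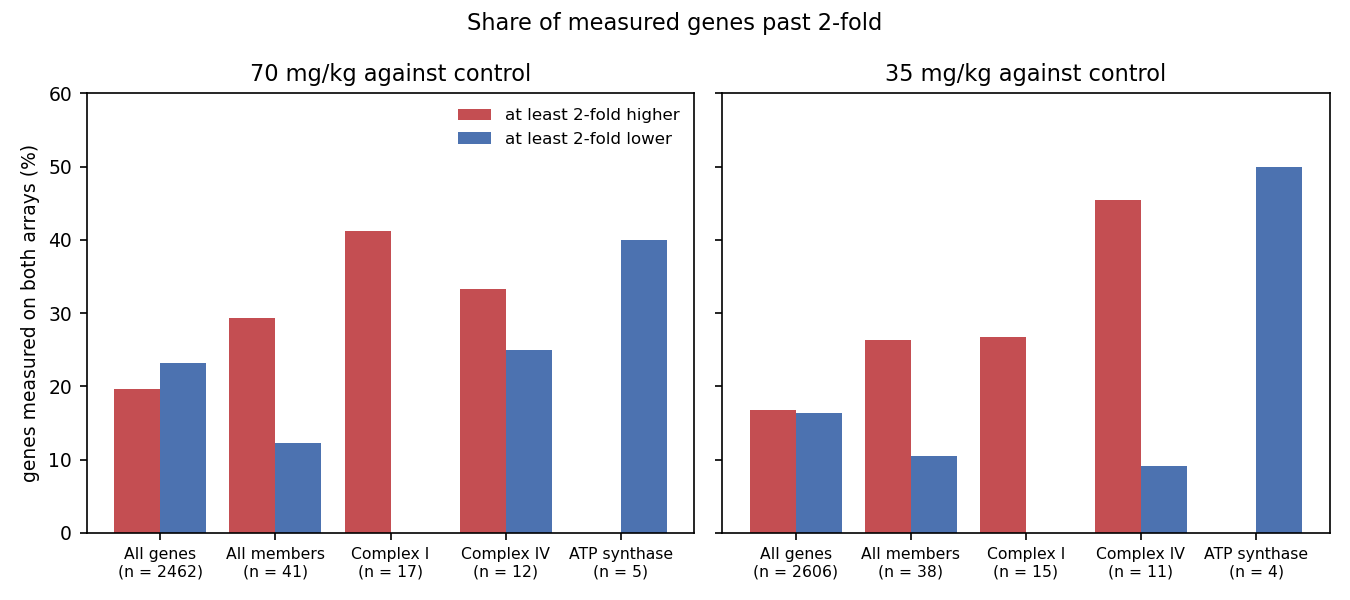
Percent of genes measured on both arrays that were at least 2-fold higher (red bars) or lower (blue bars) than control at each dose, for all genes, all members, and the members in complexes I, IV and V, with the number measured as n (complexes II and III, with 2 or fewer, are not drawn). At 70 mg/kg against control 41.2% of 17 measured complex I members were higher and 0 lower, against 19.7% and 23.2% of all genes. Of 5 measured ATP synthase members 40% were lower and 0 higher. These shares depend on the floor. At the 5th percentile 10 of 24 complex I members were higher and 3 lower, and 3 of 8 ATP synthase members were higher and 2 lower. The shares over all genes were then 24.1% and 26.2%.

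The probe sets of a gene are the only repeat measurement on these arrays. Their differences varied around the gene's mean with an SD of 1.51 for the members and 1.40 for all genes at 70 mg/kg, and of 1.17 and 1.08 at 35 mg/kg. A 2-fold difference read by a single probe set is therefore smaller than the spread between probe sets of 1 gene. For the high dose all measured probe sets pointed the same way in 3 of 13 members with several (23.1%), against 48.4% of 490 genes. For the low dose they did so in 6 of 12 members (50%), against 49.8% of 562 genes.

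The promoters of 5 genes that the results turn on are shown so that members that went up and down can be compared by sequence. RefSeq sequence (GRCr8 assembly), covering 250 bases before to 50 after the gene's start, was found for 47 of the 59 members. The 250 bases before the start are printed 5′ to 3′ on the gene's strand for Ndufs1 and Ndufa5 (complex I, higher at both doses), Uqcrfs1 (complex III, higher at 35 mg/kg), Cox8a (complex IV, lower at 70 mg/kg) and Atp5f1b (ATP synthase, lower at both doses). Capitals mark matches, on either strand, to the letters GCGCANGCG (the core bound by NRF-1) or CCGGAAG (the ETS core bound by NRF-2, also called GABP), which are nuclear respiratory factors known to act on such genes. The windows are chr9:72073606-72073855 (minus strand) for Ndufs1, chr4:53971236-53971485 (minus strand) for Ndufa5, chr17:34186352-34186601 (plus strand) for Uqcrfs1, chr1:213833624-213833873 (minus strand) for Cox8a and chr7:1099808-1100057 (plus strand) for Atp5f1b.
Ndufs1: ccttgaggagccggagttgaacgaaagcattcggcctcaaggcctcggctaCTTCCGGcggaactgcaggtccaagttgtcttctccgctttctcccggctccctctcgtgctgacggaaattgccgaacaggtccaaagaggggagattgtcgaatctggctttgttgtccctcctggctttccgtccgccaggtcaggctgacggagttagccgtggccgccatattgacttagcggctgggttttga
Ndufa5: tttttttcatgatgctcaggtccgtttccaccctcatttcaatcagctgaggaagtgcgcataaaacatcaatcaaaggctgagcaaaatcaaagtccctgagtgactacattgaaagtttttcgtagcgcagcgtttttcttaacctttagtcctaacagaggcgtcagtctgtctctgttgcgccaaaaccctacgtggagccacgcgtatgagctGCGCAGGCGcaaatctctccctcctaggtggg
Uqcrfs1: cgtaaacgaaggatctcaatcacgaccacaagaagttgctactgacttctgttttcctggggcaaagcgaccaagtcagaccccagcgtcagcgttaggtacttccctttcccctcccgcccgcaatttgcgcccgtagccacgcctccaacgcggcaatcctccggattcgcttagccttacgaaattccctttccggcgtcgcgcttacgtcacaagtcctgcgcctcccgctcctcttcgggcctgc
Cox8a: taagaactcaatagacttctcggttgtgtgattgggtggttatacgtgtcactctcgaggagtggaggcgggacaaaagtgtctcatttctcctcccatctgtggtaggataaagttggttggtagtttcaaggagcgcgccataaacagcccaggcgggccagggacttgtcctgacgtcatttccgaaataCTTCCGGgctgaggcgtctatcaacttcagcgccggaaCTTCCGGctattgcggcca
Atp5f1b: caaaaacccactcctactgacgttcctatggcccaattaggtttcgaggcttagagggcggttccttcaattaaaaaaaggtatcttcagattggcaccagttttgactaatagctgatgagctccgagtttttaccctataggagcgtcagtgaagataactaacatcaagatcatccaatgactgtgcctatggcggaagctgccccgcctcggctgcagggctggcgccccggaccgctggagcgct

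Cox8a carried the NRF-2 letters at 57 and at 19 bases before its start, Ndufs1 carried them at 199 bases, and Ndufa5 carried the NRF-1 letters at 32 bases. Neither string was in the printed windows of Uqcrfs1 and Atp5f1b, which says only that these letters are absent there. Over the 300 bases of each window, the NRF-1 letters were in 9 of 47 member promoters (19.1%), against 7.62% of 21842 protein-coding promoters and 8.96% of the 4175 of genes on the array. With a further C required at the 3′ end the NRF-1 share was 12.8%, against 5.66% and 6.59%. The NRF-2 letters were in 10 member promoters (21.3%), against 10.7% and 11.9%, and only Ndufa6 held both strings. The TATA box letters TATAAA were in 2 (4.26%), against 13.0% and 11.3%. The median GC content was 56.0% for members, 55% for all promoters and 59.7% for genes on the array. For the high dose the 12 measured members with either NRF string had a median difference of 0.10, with 2 higher and 1 lower. The 20 with neither had a median of 0.37, with 6 higher and 2 lower, against 19.7% higher and 23.2% lower of all genes. At 35 mg/kg the median over 12 members with either string was 0.38, 3 higher and 3 lower. Over 17 with neither it was 0.55, 4 higher and 1 lower, against 16.8% and 16.3% of all genes. Both groups are small, and the difference between them was not tested.

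Complex I, the NADH dehydrogenase, held more of the higher members at the high dose than any other complex. There 7 of its 17 measured members were at least 2-fold higher than control (41.2%) and 0 were lower, with a median of 0.45, against 19.7% and 23.2% of all genes. At the low dose 4 of 15 were higher (26.7%) and 0 lower, with a median of 0.55, against 16.8% and 16.3%. By module, 2 of 5 measured members were higher at the high dose in the part that takes electrons from NADH and 4 of 8 in the membrane arm. In the part that passes electrons to ubiquinone 1 of 4 was higher, near the 19.7% of all genes, and the median was -0.29. Under the 5th percentile floor 10 of 24 members were higher and 3 lower at the high dose, against 24.1% and 26.2% of all genes. At the low dose 6 of 24 were higher and 3 lower under that floor, against 19.3% and 22.2%.

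Ndufs1, the largest subunit of the electron input module and a carrier of iron-sulfur clusters, had intensities of 225.9 on the control array, 1546 at the low dose and 1514 at the high dose. It was higher by 2.77 at the low dose and by 2.75 at the high dose, with -0.03 between the doses, and its control value lay just above the floor. Ndufv2, an iron-sulfur subunit of the same module, had 1428, 1167 and 4285. Only the high-dose array was high, by 1.59, and the difference at the low dose was -0.29. Ndufs6 and Ndufs4, smaller subunits of that module, differed by 0.20 and 0.45 at the high dose and by 0.18 and 0.91 at the low dose. With a floor at the 25th percentile Ndufs4 passed 2-fold at both, at 1.14 and 1.15. Ndufv3, another small subunit there, differed by -0.38 at the high dose and 0.39 at the low dose in its brighter probe set. The dimmer, made from the same sequence record, had 30.2, 184.9 and 427.0 and was at least 2.27-fold higher at the high dose.

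In the ubiquinone module, Ndufa9 had intensities of 464.3 (control), 1621 (35 mg/kg) and 3429 (70 mg/kg), so the order of the arrays was the order of the doses. Its differences were 1.80 at the low dose, 2.88 at the high dose and 1.08 between the doses. Ndufa5, another accessory subunit of the peripheral arm, had 58.4, 443.6 and 1345 and was under the floor on the control array. Its bounds were at least 2.36-fold higher at the low dose and at least 7.14-fold at the high dose, and it was higher by 1.60 between the doses. Ndufs7, which carries the last iron-sulfur cluster before ubiquinone, went the other way but stayed within 2-fold, with 330.5, 163.3 and 194.2 and a difference of -0.77 at the high dose. Ndufs8, which carries iron-sulfur clusters of the same chain, had -0.22 at the high dose and 0.70 at the low dose in 1 of its 4 probe sets. Another, with 109.0, 474.6 and 444.1, was at least 2.52-fold higher at the low dose and at least 2.36-fold at the high dose.

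In the membrane arm, Ndufa8 had 489.5 on the control array, 249.5 at the low dose and 3578 at the high dose. The high-dose array alone was high, by 2.87 over control, and the difference at the low dose was -0.97, just inside 2-fold. Ndufb10, like Ndufa8 an accessory subunit with cysteines that form disulfide bonds, had 229.3, 427.6 and 763.6, with differences of 0.90 and 1.74. Ndufc1 was read by 2 probe sets, 241.7, 127.9 and 526.6 in one and 285.0, 135.9 and 586.6 in the other. They differed by 1.12 and 1.04 at the high dose, and both were under the floor at the low dose, where the gene was at least 3.11-fold below the high-dose array.

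Other accessory subunits of the membrane arm varied by array and by probe set. Ndufb6 read 856.3, 1526 and 2491 in 1 probe set and 291.9, 1208 and 161.6 in the other, which is under the floor at the high dose. Its difference was 1.54 at the high dose from the first probe set alone, and 0.34 with a floor at the 5th or 25th percentile, which lets the second in. At the low dose it was 1.44 over both probe sets and 0.83 in the brighter. Ndufb2 was high at the low dose only, with 285.1, 755.5 and 69.4, which is 1.41 over control and at least 4.01-fold above the high-dose array. Ndufb9 was the reverse, with 138.7, 146.5 and 788.0, at least 4.18-fold higher at the high dose than on either other array.

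The remaining complex I members stayed within 2-fold of control where they were measured. Ndufb8, read by 4 probe sets, differed by 0.25 at the high dose, with a range of -0.98 to 0.47 over its measured probe sets. At the low dose it differed by -0.38, which was -1.78 with a floor at the 5th percentile. A probe set of Ndufb8 with 766.3, 114.3 and 85.2 passed the floor on the control array only and was at least 4.07-fold lower at both doses. Another, with 625.1, 102.3 and 742.2, was at least 3.32-fold lower at the low dose. Ndufb11 differed by -0.66 at the high dose and 0.55 at the low dose, and its other probe set, at 40.9, 68.4 and 416.4, was above the floor on the high-dose array only, so that a floor at the 5th percentile gave 1.35 at the high dose. Ndufa3, Ndufa6 and Ndufb3 differed by 0.51, -0.37 and 0.20 at the high dose. Ndufab1, the mitochondrial acyl carrier protein, was above the floor in 1 of 3 probe sets and on the low-dose array only.

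**Figure D2:**
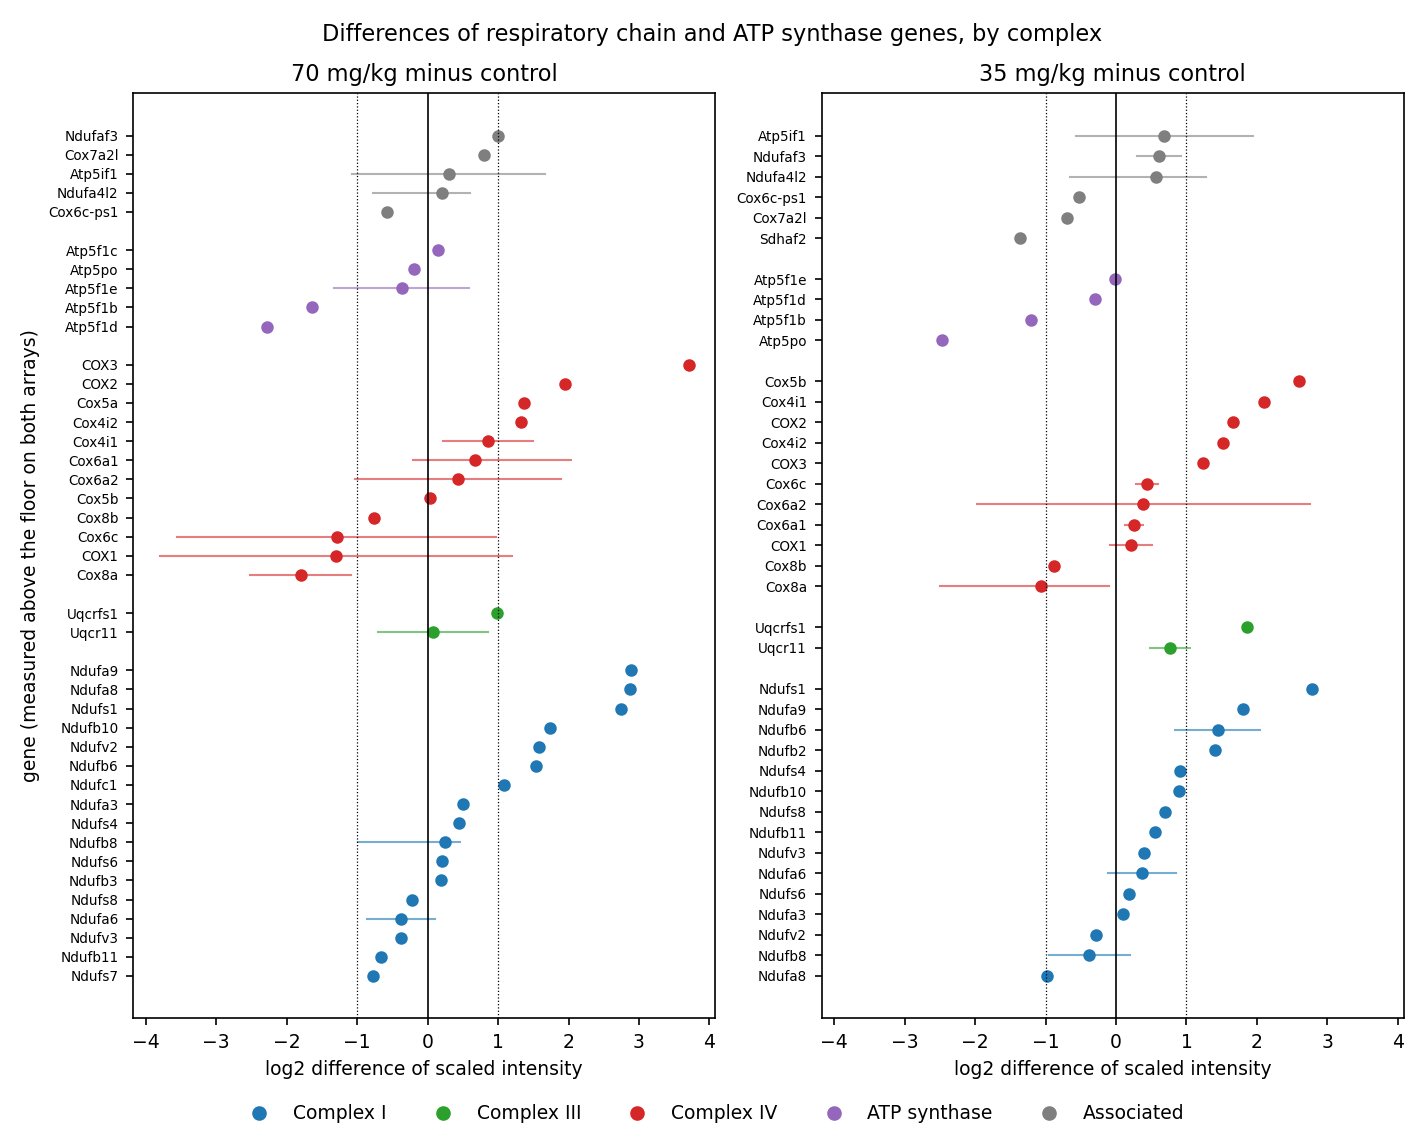
Log2 difference from the control array for each measured member gene at 35 and 70 mg/kg, grouped by complex (1 point per gene), with a line for the range over its probe sets where several were measured and dotted lines at 2-fold. Complex I members at the high dose lie between -0.77 and 2.88, and the lowest ATP synthase values are -2.27 for Atp5f1d at the high dose and -2.47 for Atp5po at the low dose.

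Complex II, succinate dehydrogenase, was represented by its flavoprotein subunit Sdha alone, with 33.9, 145.4 and 34.0 all under the floor. Complex III, the cytochrome bc1 complex, had 4 members, of which Uqcrfs1 and Uqcr11 were measured. Uqcrfs1, the Rieske iron-sulfur protein that hands electrons to cytochrome c1, was measured against control in its brightest probe set alone, with 345.8, 1253 and 686.1. The next, with 59.7, 704.1 and 661.6, was under the floor on the control array. Its bounds were at least 3.74-fold higher at the low dose and at least 3.51-fold at the high dose. The dimmest, with 49.2, 130.9 and 116.3, was under the floor on every array. The brightest gave a difference of 1.86 at the low dose and 0.99 at the high dose, just short of 2-fold, and 1.14 on the values as deposited. In this gene the control array was the lowest of the 3 in the brightest probe set and in the next.

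Uqcr11, a small subunit of complex III, had 1156, 1615 and 2098 in 1 probe set and 367.3, 759.3 and 225.2 in the other. Both were higher at the low dose, by 0.48 and 1.05, and they disagreed at the high dose, with 0.86 and -0.71. Cyc1, cytochrome c1, was above the floor only on the low-dose array, with 107.7, 196.8 and 45.6. Uqcrc2, a core protein of the complex, was near but under the floor on every array, with 181.8, 184.6 and 175.2.

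Complex IV, cytochrome c oxidase, had 4 of 12 measured members higher at the high dose (33.3%) and 3 lower (25%), with a median of 0.56, against 19.7% and 23.2% of all genes, so the share that was lower was near that of all genes. At the low dose 5 of 11 were higher (45.5%) and 1 lower (9.09%), with a median of 0.44, against 16.8% and 16.3%. Its catalytic core comes from mitochondrial DNA. COX3, a core subunit without redox centres, had 978.9 on the control array, 2311 at the low dose and 12791 at the high dose, higher by 1.24 and 3.71. COX2, which takes electrons from cytochrome c through its copper centre, had 728.4, 2306 and 2817, higher by 1.66 and 1.95. For both genes the arrays stood in the order of the doses.

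COX1, which holds the haem and copper site where oxygen is reduced, was read by a pair of probe sets that went opposite ways at the high dose. The first had 4528, 6443 and 10437, a difference of 1.20 at the high dose, and the second had 4391, 4140 and 315.1, a difference of -3.80. Their median, -1.30, counts COX1 as lower, but the difference was 1.20 by the brightest probe set and 0.27 from gene values taken before the difference. At the low dose the probe sets gave 0.51 and -0.08.

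Among the nuclear subunits of complex IV, Cox4i1 and Cox4i2 are alternative forms of a subunit that takes part in regulating the enzyme. Cox4i2, the form known from lung and hypoxia, had 1607, 4610 and 4034, higher by 1.52 at the low dose and 1.33 at the high dose (2.03 after quantile normalization). Cox4i1, the ubiquitous form, was read by 3 probe sets, with 210.9, 903.2 and 595.3, with 153.8, 1060 and 3833, and with 230.7, 86.9 and 267.8. It was higher by 2.10 at the low dose, in the only probe set measured there, and differed by 0.86 at the high dose, with 0.22 and 1.5 in its probe sets, and by 1.01 on the values as deposited. The probe set at 153.8 on the control array gave bounds of at least 5.63-fold higher at the low dose and 20.4-fold at the high dose. Its last probe set was dimmer at the low dose than on the control array and under the floor there.

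Cox6a1 and Cox6a2 are the liver-type and heart-type forms of another subunit. Cox6a2 had 409.4, 2759 and 1526 in 1 probe set and 3246, 823.9 and 1596 in another, so that its differences were 1.90 and -1.02 at the high dose and 2.75 and -1.98 at the low dose. Cox6a1 ranged from -0.21 to 2.04 over its 3 probe sets at the high dose, with a median of 0.68, and differed by 0.25 at the low dose. No direction can be given for either form from these values.

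Cox8a and Cox8b are the ubiquitous and the muscle form of the smallest subunit, and Cox8a was lower in every probe set at both doses. Its intensities were 6164, 3178 and 1079 in 1 probe set, 7026, 6553 and 3301 in another, 1415, 249.5 and 118.9 in a probe set made from the same sequence record as the latter, and 663.1, 292.9 and 190.7 in the last. The control array was the highest and the high-dose array the lowest in all 4. The differences were -1.80 at the high dose (from -2.51 to -1.09 over 3 probe sets) and -1.07 at the low dose (from -2.50 to -0.10 over 4). The value at the low dose was -0.53 with a floor at the 55th percentile and -0.10 in the brightest probe set. Cox8b had 759.5, 412.7 and 449.3, with differences of -0.88 and -0.76 that stayed within 2-fold.

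The other nuclear complex IV subunits each had a pattern of their own. Cox5b, a zinc-binding subunit, was high at the low dose only, with 332.0, 2006 and 341.2 and differences of 2.59 and 0.04. Cox5a, which faces the matrix, was high at the high dose only, with 203.5, 139.2 and 524.7 and a difference of 1.37. A further probe set, annotated to Cox5a together with an unnamed locus and so outside the rule, had 46.1, 440.1 and 146.2 and was above the floor at the low dose only. Cox7b, a small membrane subunit, had 178.6, 419.1 and 853.8, at least 2.23-fold higher at the low dose and at least 4.53-fold at the high dose. Cox6b1, which faces the intermembrane space, had 156.7, 548.0 and 300.2 in its brighter probe set and a bound of at least 2.91-fold at the low dose.

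Cox6c, a membrane subunit next to the core, again had probe sets that parted at the high dose. The first had 2876, 4334 and 245.5, a difference of -3.55, and the second 270.6, 328.4 and 529.1, a difference of 0.97. Their median of -1.29 counts Cox6c as lower, while at the low dose the median was 0.44. Ndufa4, named as a complex I protein and later assigned to complex IV, had 79.8, 127.7 and 231.0 and passed the floor at the high dose only.

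**Figure D3:**
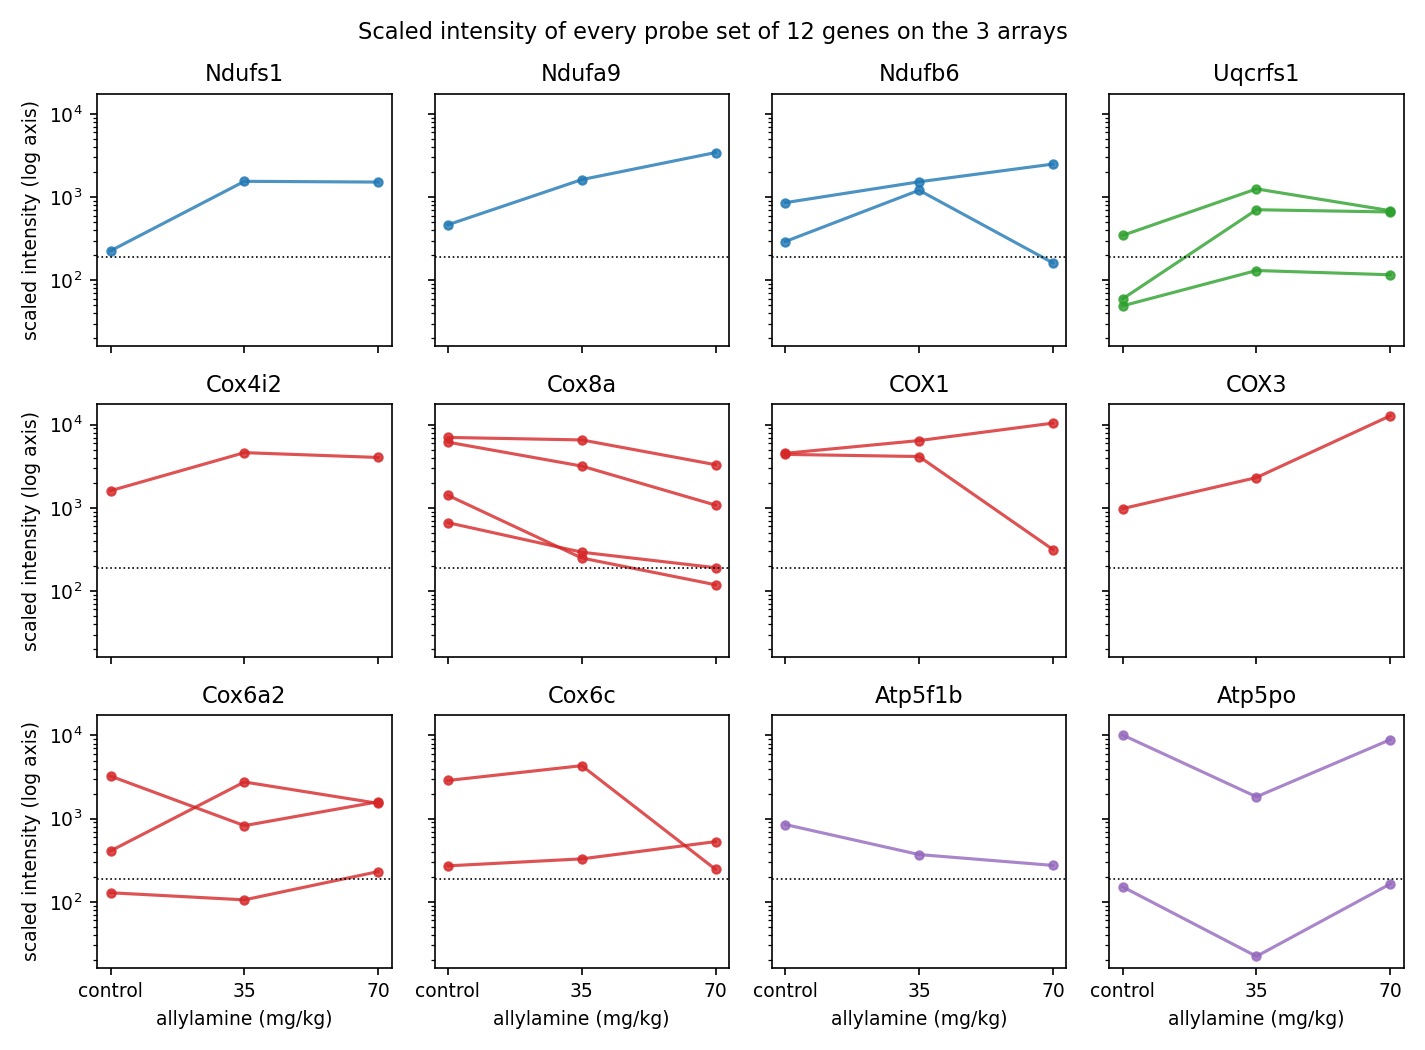
Scaled intensity (log axis) of every probe set of 12 members on the control, low-dose and high-dose arrays, with 1 line per probe set and the floor of 188.3 as a dotted line. The probe sets of COX1 part at the high dose (10437 and 315.1), while the lines of Cox8a all run downward.

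ATP synthase had its measured members near or below control with the floor used here. At the high dose 0 of its 5 measured members were higher and 2 lower, with a median of -0.37, against 19.7% higher and 23.2% lower of all genes. The median became 0.06 over 8 measured members, 3 higher and 2 lower, with a floor at the 5th percentile. All genes had 24.1% higher and 26.2% lower with that floor. At the low dose 0 of 4 were higher and 2 lower, with a median of -0.75, against 16.8% and 16.3% of all genes. With the 5th percentile floor 1 of 9 was higher and 4 lower at the low dose, against 19.3% and 22.2%. The difference between complexes rests on few genes and was not tested. Atp5f1b, the catalytic beta subunit of the head, had 849.7 on the control array, 369.9 at the low dose and 274.0 at the high dose. It was lower at both doses, with differences of -1.20 and -1.63. Atp5f1d, the delta subunit of the central stalk, had 1519, 1229 and 314.0, a difference of -0.30 at the low dose and -2.27 at the high dose. Its dimmer probe set, made from the same sequence record, had 656.4, 86.4 and 106.7, and counting it, by the 5th percentile floor, gave -1.62 at the low dose.

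The other ATP synthase members varied by array. Atp5f1c, the gamma subunit that turns within the head, had 272.9, 133.3 and 303.0, a difference of 0.15 at the high dose. Atp5f1e, the epsilon subunit of the central stalk, had 626.4, 618.0 and 249.6 in 1 probe set and 240.4, 137.0 and 362.0 in the other, with differences of -1.33 and 0.59 at the high dose. Atp5f1a, the alpha subunit that alternates with beta in the head, passed the floor at the high dose only, with 156.2, 134.8 and 361.7. Of the peripheral stalk, which holds the head still, Atp5po had 10129, 1831 and 8910 and was low at the low dose only, with differences of -2.47 and -0.19. Atp5pf, also of that stalk, was at least 4.42-fold higher at the high dose in the brighter of its probe sets, with 98.1, 153.7 and 833.0.

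Among the associated proteins, Sdhaf2, which attaches the flavin to Sdha, had 1923, 748.9 and 65.0, with a difference of -1.36 at the low dose and at least 10.2-fold lower at the high dose. Its intensity was lower at each step in dose. Cox7a2l, a protein that helps complexes III and IV form supercomplexes, had 669.9, 412.5 and 1170 in 1 probe set and 69.8, 62.0 and 1778 in the other. Its differences were -0.70 at the low dose and 0.80 at the high dose, and both probe sets were highest at the high dose, where a floor at the 5th percentile gave 2.74.

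Ndufaf3, an assembly factor of complex I, had 922.3, 1746 and 1852 in its brightest probe set and 733.3, 903.5 and 181.2 in the next. It was counted as higher at the high dose by 1.01 because the second lay just under the floor there. On the values as deposited, where that probe set passed, its difference was -0.36. Atp5if1, the inhibitor that stops ATP synthase from running backward, differed by 1.67 and -1.07 in its measured probe sets at the high dose and by 1.95 and -0.57 at the low dose. Ndufa4l2, a relative of Ndufa4 known as a hypoxia target, differed by 0.21 at the high dose and 0.57 at the low dose as the median of its measured probe sets. Cox6c-ps1, annotated as a pseudogene, differed by -0.53 at the low dose and -0.57 at the high dose, and it may share signal with Cox6c.

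Between the doses the measured differences ran from -2.56 to 3.84. Ndufa8, COX3 and Atp5po were higher on the array of the high dose by 3.84, 2.47 and 2.28. Cox5b, Atp5f1d and Cox6c had differences of -2.56, -1.97 and -1.73. Ndufs1, Cox4i2 and COX2, each at least 2-fold higher than control at both doses, differed by -0.03, -0.19 and 0.29 between them. Of the 14 members called between the doses, 9 kept their call under every alternative run on single genes that gave a value, and Atp5f1d (-0.83 with a floor at the 5th percentile), Atp5f1e, COX1, Cox6c and Ndufb11 did not.

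Other mitochondrial and energy genes were read from lists of related pathways. Of 18 genes of the TCA cycle and pyruvate dehydrogenase on the array, 5 were measured at the high dose, 0 higher and 4 lower, with a median of -1.26, against 23.2% lower of all genes measured. Of the 13 not measured, 3 had a bound of at least 2-fold higher and 3 of at least 2-fold lower. The shares over all genes not measured were 18.0% and 18.1%. Cs, the citrate synthase that opens the cycle, had 998.1, 1711 and 221.5, a difference of -2.17. Mdh2, malate dehydrogenase, differed by -1.26. Pdha1, of pyruvate dehydrogenase, differed by -1.56 in 1 of its 2 probe sets, while the other passed the floor at both doses but not on the control array, and the median intensity of both was 363.6, 414.0 and 372.8. At the low dose 7 were measured with 0 higher, 0 lower and a median of 0.05, against 16.8% higher and 16.3% lower of all genes.

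Of 17 mitochondrial carriers and porins, 9 were measured at the high dose, with a median of -0.07. Of these 3 were higher (33.3%) and 1 lower (11.1%), against 19.7% and 23.2% of all genes. At the low dose 3 of 9 were higher and 1 lower, against 16.8% and 16.3%. The uncoupling protein Ucp1, also a brown adipocyte marker, was higher by 2.10 at the high dose in 1 of its 2 probe sets. Its other probe set passed the floor on the control array only. Of the 6 adipocyte markers measured at the high dose, Ucp1 included, 1 was higher and 3 lower, with a median of -0.68. Of the 6 not measured, 2 had a bound higher and 1 a bound lower. The ADP/ATP carrier Slc25a5 was higher by 2.09 at the high dose, while the carnitine carrier Slc25a20 was lower, with -1.93. Of 19 genes of glycolysis and lactate handling, 15 were measured at the high dose, with a median of -0.28. Of these 2 were higher (13.3%) and 5 lower (33.3%), against 19.7% and 23.2% of all genes. At the low dose 2 of 15 were higher and 4 lower, against 16.8% and 16.3%, with a median of -0.23. Ldhb, of lactate dehydrogenase, differed by 2.75 in 1 of its 2 probe sets. The other probe set of Ldhb passed the floor on the control array only. Hexokinase 2 (Hk2) differed by -2.20 and muscle phosphofructokinase (Pfkm) by -1.76. Of 5 genes for mitochondrial DNA expression and biogenesis, 2 were measured at the high dose, Ppard at -1.86 and Ppara at 0.0048. Of 3 further assembly factors on the array none was measured on both arrays at the high dose, and Aifm1 had 969.4 on the control array, 113.7 at the low dose and 82.4 at the high dose.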

How the data were processed

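RNA of rat thoracic aorta was read on 3 arrays, 1 per group. The deposited table holds 1 linear intensity per probe set and array, and the sources used here do not name the authors' software and scaling. Of 8799 probe sets, 59 controls were left out. Of the 8740 kept, 7006 had 1 gene symbol in the platform annotation, 308 several and 1426 none. 56 of the 59 member gene IDs were found in the RefSeq gene table (GRCr8).

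Each array was scaled to the mean of the 3 medians (log2 shifts 0.06 for control, 0.04 at 35 mg/kg and -0.09 at 70 mg/kg), the floor was set at the 40th percentile, and log2 differences were taken as stated above, with Python 3.11.15, pandas 2.3.3 and numpy 2.4.6. The calculation was tested on simulated data. No between-group test was possible.

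The members, the related lists and the alternatives were chosen with earlier results of these data known. The NRF-1 motif was shortened by its last letter after its shares had been seen. Genes were named by rule: up to 5 members per complex with the largest absolute difference in either dose comparison, mitochondrially encoded members, members whose probe sets disagree by 2-fold each way, isoform pairs and members that cross the floor by 2-fold, and up to 3 genes per related list. Further members were named, for completeness, after their values were seen. Alternatives were the deposited values, quantile normalization, a 2% trimmed mean, other floors, the brightest probe set, gene values before the difference, and leaving out less specific probe sets. Probe sets counted singly were added after seeing the data.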

Additional observations from a re-analysis of the deposited data

How the results depend on the processing

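At 70 mg/kg against control 14 of 17 called members kept their call under every alternative run on single genes that gave a value, the exceptions being COX1, Ndufaf3 and Ndufb6, and at 35 mg/kg 12 of 14 did, the exceptions being Cox8a and Ndufb6. With a floor at the 5th percentile 22 of 57 members were higher and 10 lower at 70 mg/kg, against 24.1% and 26.2% of all genes. At 35 mg/kg 9 of 58 were lower with that floor, against 22.2%. Between the doses 16 of 57 were higher, against 22.6%, and a floor at the 25th percentile gave 15 of 52, against 17.7%. With a floor at the 55th percentile, 1 of 27 was lower at 70 mg/kg, against 20.5%. With that floor 6 of 30 were higher at 35 mg/kg, against 14.4%, and 2 of 32 lower between the doses, against 18.3%. Without less specific probe sets 6 of 25 were higher at 35 mg/kg, against 15.9%. The members' median was 0.48 at 70 mg/kg from gene values and 0.21 between the doses after quantile normalization. With each probe set counted by itself, chosen after seeing the data, 10 of 59 were lower at 70 mg/kg and 11 of 58 between the doses. The shares over all single-symbol probe sets measured were 24.7% and 22.4%.

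At 70 mg/kg COX1 was 1.20 with a floor at the 55th percentile or by the brightest probe set and 0.27 from gene values, and Ndufaf3 was -0.36 as deposited, -0.35 with the trimmed mean, -0.58 with the 5th and -0.51 with the 25th percentile floor. Between the doses Atp5f1e was 0.047 with the 5th and 25th percentile floors. COX1 was 0.70 with the 55th percentile floor or the brightest probe set and 0.023 from gene values, and Cox6c was 0.69 with the 55th percentile floor. Ndufb11 was 0.70 with the 5th percentile floor and 0.24 from gene values. In the cases with another floor or with the brightest probe set, the probe sets that counted differed by construction. On the deposited values the second probe set of Ndufaf3 passed the floor, as stated above. For the other alternatives the cause was not tested. No paired analysis was possible because each group had 1 array, and for the same reason no replicate could be left out. The spread between animals is unknown, and near the floor a difference is limited by signal over background.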

Other observations

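The naming rule left out 7 probe sets that read a member family together with another gene symbol, so that their values cannot be given to 1 gene. Intensities follow in the order control, 35 and 70 mg/kg. The probe set shared by Ndufb4, of the membrane arm of complex I, had 217.2, 784.5 and 1570, which is 1.85 and 2.85 above control, with the arrays in the order of the doses. That of Ndufs5, also of complex I, ran the other way with 1646, 1134 and 677.9, at -0.54 and -1.28.

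The probe sets that share Atp5mc1 and Atp5mc2, which encode the same rotor ring subunit of ATP synthase, had 522.6, 967.1 and 1697 for the former (0.89 and 1.70) and 1192, 1335 and 1235 for the latter (0.16 and 0.05). The probe set shared by Cox7a2, the form of its complex IV subunit found in most tissues, had 327.9, 386.4 and 766.3, at 0.24 and 1.22. Cytochrome c (Cycs), the carrier between complexes III and IV, was read only by a probe set with 3 symbols, which had 184.3, 256.6 and 517.1 and so was under the floor on the control array. The probe set that Cox5a shares with an unnamed locus had 46.1, 440.1 and 146.2, above the floor at 35 mg/kg only, while the probe set of Cox5a alone was brightest at 70 mg/kg. At 70 mg/kg against control, 5 of the 7 shared probe sets were measured, 3 of them higher and 1 lower. Of all single-symbol probe sets measured 20.9% were higher and 24.7% lower.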
